A study of Mus musculus with 9 samples.

Results

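The synapsin genes Syn1, Syn2 and Syn3 and the genes of the tissue inhibitors of metalloproteinases Timp1, Timp2, Timp3 and Timp4 were followed in sorted lung fibroblasts. These 7 genes were chosen by name out of 55302 gene symbols, with their levels in these libraries already known, so that the levels given here are a description. In the mouse genome Timp1 lies inside Syn1, Timp4 inside Syn2 and Timp3 inside Syn3, each on the strand opposite to its host, while Timp2 lies in no synapsin gene. Of the libraries 5 came from mice treated with doxorubicin (DOX), a DNA-damaging anthracycline, and 4 from mice treated with vehicle (PBS), which the sample labels name both PBS and saline. All libraries came from an early metastatic stage, which the labels call early-met lungs. At this stage the paper saw lung macro-metastases in a minority of its mice, more often after doxorubicin than after vehicle. The mice were female BALB/c or C57BL/6. They had received 4T1 or EO771 breast cancer cells in the mammary fat pad at an age of 8 weeks. The primary tumor was resected before treatment. The sources used here do not say which strain and cell line each of these libraries came from. Lungs were taken a day after the second dose, and PDGFRα+ cells negative for CD45 and EpCAM (and, in the study's methods, CD31) were sorted. The MARS-seq method used here sequences short tags close to the 3′ end of polyadenylated RNA, and the labels count every library as its own biological replicate.

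Synapsins coat synaptic vesicles and tether them to the cytoskeleton of the nerve terminal, and they are known as neuronal proteins. TIMPs are secreted proteins that block the matrix metalloproteinases and, for some of them, the ADAM and ADAMTS proteases, which cut collagen, proteoglycans and cell surface proteins. Fibroblasts are a known source of TIMPs. TIMP3 is bound to the extracellular matrix and also inhibits ADAM17, TIMP2 takes part in the activation of pro-MMP2 by the membrane protease MMP14, TIMP1 is induced by many inflammatory signals, and TIMP4 is known for a narrow tissue range.

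The 3 nested loci differed in how the annotated exons of host and nested gene lie to each other. Coordinates are those of GENCODE M21 on GRCm38 (mm10). Syn3 spans chr10:86055125-86498896 on the minus strand and Timp3 spans chr10:86300372-86349506 on the plus strand. One Syn3 transcript, of the retained-intron type and without an annotated protein, has an exon at chr10:86347774-86351640 that runs across the end of Timp3. This exon shares 1733 bases with the last exon of the longest coding transcript of Timp3. The shared stretch makes up 36.7% of the 4722 bases of this Timp3 transcript and 36.3% of the 4775 bases of the Syn3 transcript, and it covers all of the last 1000 bases before the Timp3 end. The 2 stretches are shown here because the Timp3 row and the Syn3 row meet at this site. It is the last 30 bases of the Timp3 transcript, chr10:86349477-86349506, read on the plus strand for Timp3 and on the minus strand for Syn3. Capitals mark bases that lie in an exon of Syn3, which is all 30.
Timp3 transcript end: AAACAGTAAAGTGGTTTTATTTCTATCACA
Syn3 exon at the same site: TGTGATAGAAATAAAACCACTTTACTGTTT
Each stretch is the exact reverse complement of the other.

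At the other loci the end of the TIMP transcript lay outside every host exon. Syn1 (chrX:20860511-20921004, minus strand) and Timp1 (chrX:20870166-20874735, plus strand) share 0 exon bases, and the nearest Syn1 exon lay 8825 bases from the Timp1 end. Syn2 (chr6:115134902-115282006, plus strand) and Timp4 (chr6:115241892-115252205, minus strand) share 90 exon bases, which lie 2254 bases from the Timp4 end. Timp2 (chr11:118301069-118355740, minus strand) overlaps 1 annotated gene, Cep295nl, on its own strand and without shared exon bases, and none on the opposite strand. Syn1 also shares 9 exon bases with the end of its neighbour Araf, on the opposite strand, so that a Syn1 exon, too, holds the end of an opposite-strand coding transcript. Among the 7 members this holds for Syn1 and Syn3.

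**Figure D1:**
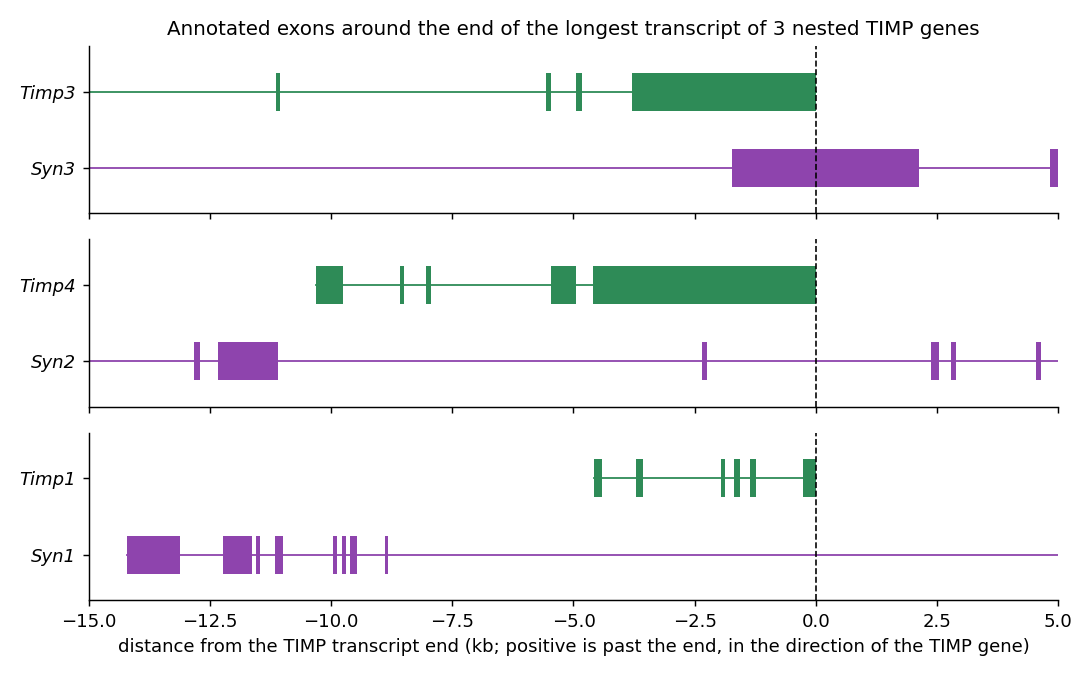
Annotated exons (boxes) and gene bodies (lines) of each nested TIMP gene, in green, and its host, in purple, against the distance in kb from the end of the longest TIMP transcript (dashed line). The Syn3 exon crosses the Timp3 end, while the nearest Syn2 and Syn1 exons stop 2254 and 8825 bases from the ends of Timp4 and Timp1.

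The Syn3 row was among the highest of all genes in every library. Its normalized counts, which are read counts over the size factor of each library, were 9121, 10544, 13804, 10985 and 10958 in DOX replicates 1 to 5, and 16227, 16705, 12579 and 9609.8 in PBS replicates 1 to 4. PBS replicates 1 to 3 lay above the DOX median and PBS replicate 4 below it, and the groups overlapped. By normalized count, with no scaling to length, the Syn3 row ranked 7th to 11th of all rows in the DOX libraries and 8th or 9th in the PBS libraries. It took 118784 of 6303233 recovered reads, with a share per library of 1.26% to 2.35% in DOX and 1.62% to 2.79% in PBS.

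The Timp3 row stood much lower than the row of its host. Its normalized counts were 39.9, 52.3, 35.8, 27.6 and 55.3 in DOX replicates 1 to 5, and 34.0, 35.9, 29.0 and 14.6 in PBS replicates 1 to 4. DOX replicates 1, 2 and 5 lay above every PBS library, DOX replicate 4 lay below all PBS libraries but replicate 4, and the groups overlapped. The row rests on 359 reads in all 9 libraries.

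Per kb of annotated exon the mean over all 9 libraries put the rows in the order Syn3, Timp2, Timp1, Syn1, Timp3, Timp4 and Syn2. The place of Timp1 rests on DOX replicate 1, with 90.9 normalized counts per kb. By the DOX mean Timp1 came second, with 22.1 ± 38.6 per kb (SD, n = 5), and by the PBS mean it came after Syn1, with 7.43 ± 3.99 against 9.84 ± 4.68 per kb (SD, n = 4). Syn3 had 902 ± 138 normalized counts per kb in DOX (SD, n = 5) and 1122 ± 272 in PBS (SD, n = 4). Timp2 had 19.6 ± 6.60 per kb in DOX and 19.4 ± 8.58 in PBS, and Timp3 had 5.18 ± 1.42 per kb in DOX and 3.48 ± 1.18 in PBS. Syn3 was the highest of the 7 rows per kb in 9 of 9 libraries, and Timp2 exceeded Timp3 per kb in 9 of 9. The neighbours Timp2, Timp1 and Syn1 were not separated in the same way, since Timp2 exceeded Syn1 per kb in 7 libraries and Syn1 exceeded Timp1 in 6. Timp1 and Timp3 also changed places, with Timp1 higher per kb in 6 of 9 libraries. A 3′ tag count does not grow with the length of a transcript in the way that whole-transcript reads do, so the scale per kb is given beside the unscaled counts and not in place of them.

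**Figure D2:**
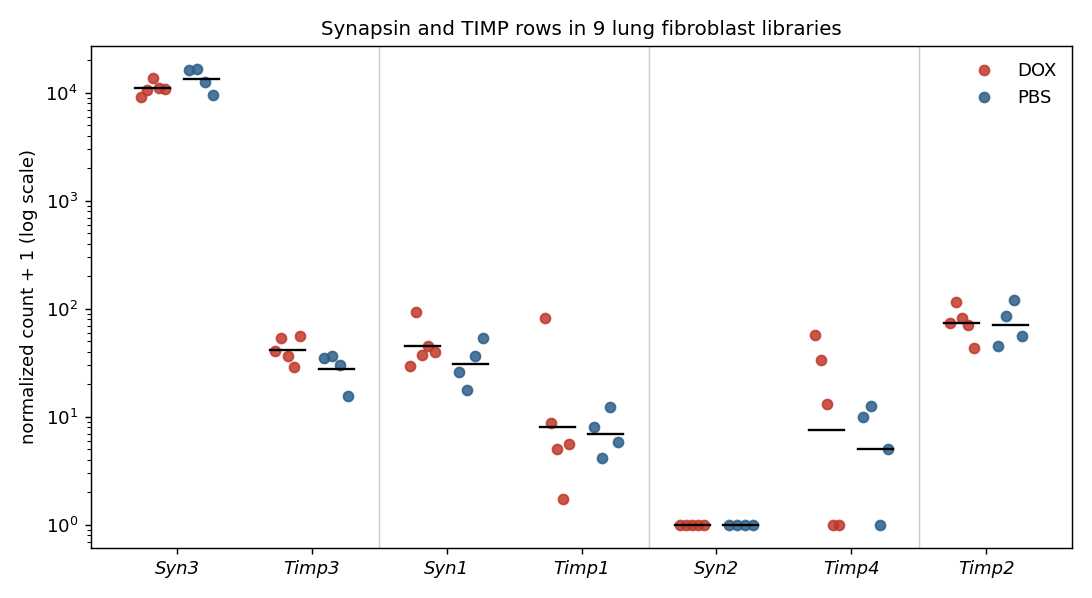
Normalized count + 1 of each gene on a log axis, DOX in red to the left and PBS in blue to the right, 1 point per library, with the mean of the log values as a black line. Syn3 sits between 9121 and 16705 while the other rows lie between 0 and 119.

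The share of the reads of a locus that fell in the synapsin row was compared next. At the Syn3 locus this share was 99.6%, 99.5%, 99.7%, 99.7% and 99.5% in DOX replicates 1 to 5, and 99.8% in each of the 4 PBS libraries. The widest exact 95% binomial interval, which covers counting error only, ran from 99.3% to 99.7% in DOX replicate 2. The share averaged 99.61 ± 0.12% in DOX (SD, n = 5) and 99.80 ± 0.03% in PBS (SD, n = 4), and all 5 DOX libraries lay below all 4 PBS libraries. In an exact two-sided permutation test the difference of -0.19 percentage points gave p = 0.0476 and an adjusted p of 0.0952 over the 2 loci tested, which does not pass 0.05. Of 121 nested pairs with at least 90 reads and reads in all 9 libraries, 1 pair (0.826%), Syn3 with Timp3, had all DOX libraries below all PBS libraries, and 1 pair (0.826%) had them above.

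At the Syn1 locus the share of the synapsin row was 26.3% in DOX replicate 1, with an exact 95% binomial interval of 18.6% to 35.2%. In the other 4 DOX libraries it was 89.4% to 98.3%, and in the PBS libraries 75.7% to 91.5%. Its mean of 79.3 ± 29.8% in DOX (SD, n = 5) against 82.4 ± 7.08% in PBS (SD, n = 4) gave p = 0.984 in the exact permutation test (adjusted p = 0.984). Without DOX replicate 1 the DOX mean was 92.5% and the difference changed sign to 10.1 percentage points (adjusted p = 0.0857, exact permutation test). At the Syn2 locus the share was 0% in the 6 libraries with any read, which hold 5 to 60 reads each, so that the exact 95% upper bounds ran from 5.96% to 52.2%.

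**Figure D3:**
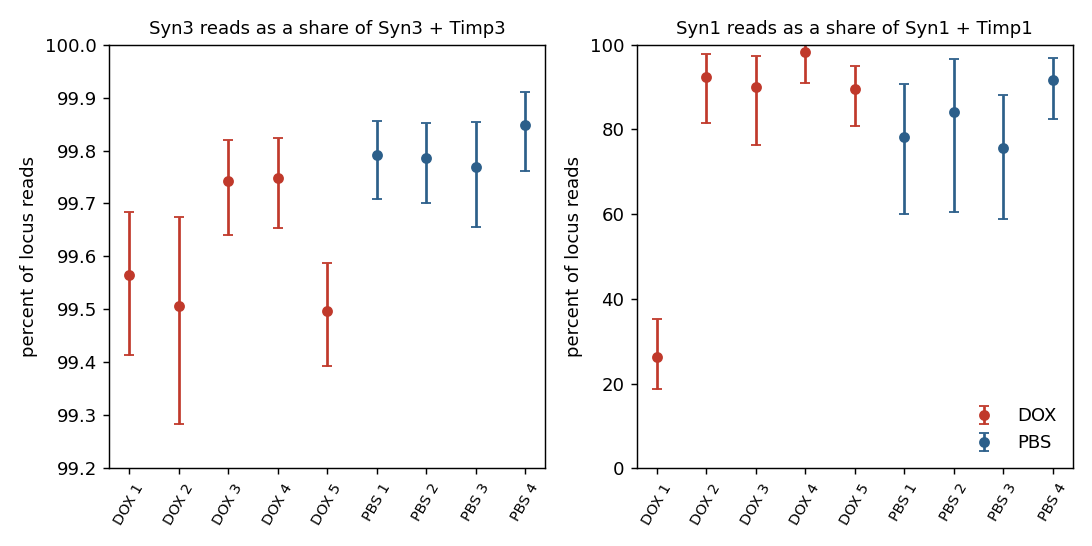
Reads of the synapsin row as a percent of the reads of both rows of the locus, per library, DOX in red to the left of PBS in blue, with exact 95% binomial intervals. The left axis, for Syn3, covers only the top of the percent scale and shows all DOX libraries below all PBS libraries, and the right axis, for Syn1, shows DOX replicate 1 alone at 26.3%.

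The row of Syn1, a synapsin of mature nerve terminals, was above 0 in every library. It had 28.8, 92.9, 36.8, 44.1 and 38.9 in DOX replicates 1 to 5, and 24.97, 16.9, 35.3 and 52.7 in PBS replicates 1 to 4. DOX replicate 2 stood apart at the top of its group, PBS replicate 4 was the highest of PBS, and the groups overlapped. DOX replicate 2 also had the largest share of reads in the ribosomal RNA gene CT010467.1, 35.3% against 7.91% to 16.8% in the other DOX libraries and 5.74% to 9.34% in PBS, and its part in the Syn1 value was not tested. Without DOX replicate 2 the DOX mean was 37.1 ± 6.36 (SD, n = 4) against 32.5 ± 15.4 in PBS (SD, n = 4).

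The Timp1 row was low in 8 of 9 libraries and high in 1. Its normalized counts were 80.7, 7.74, 4.09, 0.747 and 4.61 in DOX replicates 1 to 5, and 6.99, 3.17, 11.4 and 4.86 in PBS replicates 1 to 4. DOX replicate 1 held 87 of the 130 reads of the row. Without it the DOX mean was 4.30 ± 2.86 (SD, n = 4), against 6.60 ± 3.54 in PBS (SD, n = 4), whereas with it the DOX mean was 19.6 ± 34.3 (SD, n = 5). Timp1 reached 10 normalized counts in 2 libraries, DOX replicate 1 and PBS replicate 3, and so was not tested.

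Syn2, which like Syn1 is a synapsin of mature nerve terminals, had 0 reads in all 9 libraries. With a floor of 3 reads this allows up to 1.54 to 5.81 normalized counts in a single library, for counting error only. Timp4, nested in it, had 55.7, 32.9, 12.3, 0 and 0 normalized counts in DOX replicates 1 to 5, and 8.99, 11.6, 0 and 4.05 in PBS replicates 1 to 4. Zero values occurred in both groups, and the 3 highest libraries were DOX replicates 1 to 3. Timp4 entered the test because it reached 10 in 4 libraries, 3 of them DOX.

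Timp2, the member with no opposite-strand gene over it, had 73.3, 114, 80.7, 70.2 and 42.5 normalized counts in DOX replicates 1 to 5, and 44.0, 84.4, 119 and 55.1 in PBS replicates 1 to 4. The lowest library was a DOX library and the highest a PBS library. Group means were 76.2 ± 25.7 in DOX (SD, n = 5) and 75.5 ± 33.4 in PBS (SD, n = 4). Cep295nl, which lies inside Timp2, stood at 0 to 1.62, and Araf, at the Syn1 end, at 2.04 to 27.6.

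No member passed the test between DOX and PBS. In limma with a mean-variance trend over the 2604 genes that reached 10 normalized counts in 4 or more libraries, 0 of the 5 tested members and 0 of all genes (0%) had a Benjamini-Hochberg adjusted p under 0.05. At an unadjusted p under 0.05 there were 162 genes (6.22%) and 0 members. None of the 5 tested members had groups without overlap, compared with 33 genes (1.27%) with all DOX above all PBS libraries and 36 (1.38%) with all DOX below. edgeR, DESeq2 and limma-voom on the recovered reads also called 0 genes. Timp1 and Syn2 did not pass the filter on low values.

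The Syn3 row had a log2 fold change of -0.29 (SE 0.20, 95% interval -0.72 to 0.13, limma adjusted p = 0.822). The row of its nested gene Timp3 had a log2 fold change of 0.59 (SE 0.41, interval -0.28 to 1.45, limma adjusted p = 0.825). The fitted values thus had opposite signs, and both intervals include 0. Syn1 had 0.55 (interval -0.39 to 1.49), Timp4 0.60 (interval -2.26 to 3.45) and Timp2 0.05 (interval -0.74 to 0.84), all with adjusted p of 0.856 or more in limma. For Timp4 the interval is so wide that neither a rise nor a fall of several fold can be told from these libraries.

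PBS replicate 4 differed from the other libraries in the marker lists and was at an end of the PBS group for 3 members. The summed normalized count of its 12 fibroblast markers was 1782, against 2581 to 3684 in the other 8 libraries, and the sum of 12 granulocyte markers was 1177, against 23.0 to 91.1. Its pan-immune markers summed to 297, against 6.50 to 36.9 in the other 8 libraries, its epithelial markers to 480, against 15.8 to 178, and its endothelial markers to 193, against 64.9 to 152. It was the lowest PBS library for Syn3 and the lowest of all 9 for Timp3, and the highest of PBS for Syn1. In bulk libraries fewer cells of a type and less RNA per cell cannot be told apart. Without PBS replicate 4 the log2 fold change of Syn3 was -0.45 with an unadjusted p of 0.0283 in limma (adjusted p = 0.553), and that of Timp3 was 0.31 (adjusted p = 0.892). Without it the PBS mean of Syn3 was 15170.4 ± 2257 (SD, n = 3), above the DOX mean of 11082 ± 1701 (SD, n = 5). The part of these marker differences in the member values was not tested.

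The sums of both rows of a locus did not pass the test either. The sum of Syn3 and Timp3 averaged 11125 ± 1698 in DOX (SD, n = 5) and 13809 ± 3345 in PBS (SD, n = 4), with a difference of -0.29 in mean log2(sum + 1) and an exact permutation p of 0.183 (adjusted p = 0.286 over 3 loci). The sum of Syn1 and Timp1 averaged 67.9 ± 34.1 in DOX and 39.1 ± 16.4 in PBS, a difference of 0.75 on the log2 scale (exact permutation p = 0.190, adjusted p = 0.286). The sum of Syn2 and Timp4 is that of Timp4 alone and differed by 0.60 (exact permutation p = 0.714, adjusted p = 0.714).

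**Figure D4:**
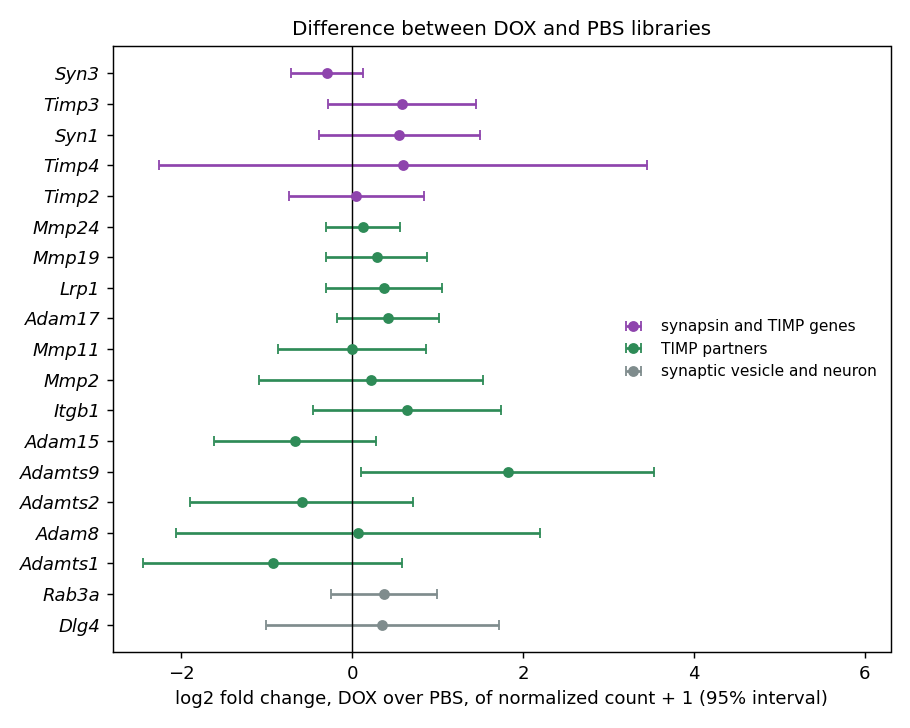
log2 fold change of DOX over PBS on log2(normalized count + 1) with its 95% interval from limma, for the tested synapsin and TIMP genes, the tested TIMP partners and the tested synaptic genes. All intervals but that of Adamts9 include 0, and none of these genes passed after adjustment.

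The genes whose products TIMPs bind or inhibit were read from the same fit. Of 41 listed genes 12 were tested, of which 8 had a fitted value above 0 and 4 below, 0 were called, and the median log2 fold change was 0.17, against -0.01 over all 2604 genes, of which 49.4% were above 0. The highest by mean normalized count were Mmp24, a membrane-type metalloproteinase known from neurons, and Mmp19, a secreted metalloproteinase. Mmp24 had 934 ± 189 in DOX (SD, n = 5) and 851 ± 127 in PBS (SD, n = 4), and Mmp19 had 432 ± 174 in DOX and 334 ± 43.0 in PBS. Both rows, and that of Adam17, hold the end of an opposite-strand coding transcript in an exon, as Syn3 does. Their values are likewise values of the rows, and all 3 are among the 8 tested genes above 0.

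Adam17, the sheddase inhibited by TIMP3, had 157 ± 37.2 in DOX and 117 ± 25.9 in PBS, with a log2 fold change of 0.42 (limma adjusted p = 0.820). Mmp2, which degrades basement membrane collagen and whose activation involves TIMP2, had 47.2 ± 37.3 in DOX and 40.4 ± 26.4 in PBS, and Mmp14, which was not tested, had 7.01 ± 3.86 in DOX and 19.2 ± 17.9 in PBS, where the mean was 10.4 without PBS replicate 3. Lrp1, an endocytic receptor for several TIMPs, had 178 ± 58.7 in DOX and 137 ± 52.9 in PBS. Mmp11, a metalloproteinase of stromal cells, had 53.5 ± 19.3 in DOX and 57.03 ± 33.1 in PBS, and Itgb1, the β1 integrin, 36.9 ± 16.0 in DOX and 23.8 ± 13.3 in PBS. Adam17, Mmp2, Lrp1, Mmp11 and Itgb1 did not pass the test.

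Adamts9, a protease of proteoglycans, had the lowest p of the list, with 16.9 to 36.8 in DOX and 1.26 to 50.9 in PBS and a log2 fold change of 1.82 (SE 0.81, unadjusted p = 0.0386, limma adjusted p = 0.761). Adam15, a membrane disintegrin and metalloproteinase, had 9.28 to 24.6 in DOX and 24.97 to 33.2 in PBS and a log2 fold change of -0.67 (SE 0.45, limma adjusted p = 0.820). Its groups did not overlap, by a narrow gap, as was the case in this direction for 36 of all 2604 tested genes (1.38%). Adamts1 had 6.70 ± 3.47 in DOX and 13.9 ± 6.99 in PBS, with a log2 fold change of -0.93 (limma adjusted p = 0.853). The secreted metalloproteinases Mmp7, Mmp10, Mmp12 and Mmp13, and also Mmp16, Kdr and Agtr2, had 0 in all libraries.

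Most rows of genes of the tissue that synapsins are known from were at or near 0. Of 31 synaptic and neuronal genes, 13 had 0 in all 9 libraries, among them Syt1, Map2, Tubb3, Nefl, Nefm, Nefh and Gap43, and 2 were tested. These were Rab3a, a small GTPase of secretory vesicles, with 146 ± 40.2 in DOX (SD, n = 5) and 112 ± 26.9 in PBS (SD, n = 4), and Dlg4, a postsynaptic scaffold, with 13.98 ± 7.22 in DOX and 10.002 ± 3.81 in PBS. Rab3a had a log2 fold change of 0.37 (limma adjusted p = 0.856) and its row also holds an opposite-strand coding transcript end in an exon. The summed normalized count of the whole list was 126 to 234 in DOX and 116 to 175 in PBS, of which Rab3a made up the largest part. A list of 10 Schwann cell and neuron markers summed to 0 to 4.09 in DOX and 0 to 7.57 in PBS. In the same libraries the Syn3 row averaged 11082 in DOX and 13780.3 in PBS. Of the list, Snap25 averaged 0.149 in DOX and 0 in PBS, and Syp 0.252 in DOX and 0.631 in PBS. Rab3a and Dlg4 had the higher values given above. The bearing of these rows on the Syn3 row was not tested.

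The position of an opposite-strand transcript end inside an exon, as at Syn3, was then counted over all genes. Of 2578 tested genes found in the annotation, 880 (34.1%) hold the end of a protein-coding transcript of the opposite strand in an exon. Among the 100 highest rows by mean normalized count it was 71 (71.0%), and among the 20 highest 15 (75%), Syn3 being the 8th. Such rows held 55.3% of the 6274735 reads of annotated genes. The sources used here name HTSeq-count with a RefSeq annotation but give no strand setting, so that for a row of this kind reads of the gene and reads of its opposite-strand partner cannot be told apart from the tables alone. The values of the Syn3 and Syn1 rows are therefore given as values of the rows. The same holds for the rows of Mmp24, Mmp19, Adam17 and Rab3a. A strand setting applies to every row, so the values of all other rows, zeros included, are also given as values of the rows. The Syn3 row is not read as expression of Syn3 or of Timp3, nor the Syn1 row as expression of Syn1 or of Araf. The Timp3 row is not read as the level of Timp3 either, since the last 1000 bases of its transcript lie in a Syn3 exon.

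The nested pairs of the whole annotation show where the Syn3 and Timp3 pair stands. There were 551 pairs of a host and a protein-coding gene lying inside it on the opposite strand, made of 531 distinct nested genes, and 145 pairs had at least 90 reads in both rows together. Syn3 with Timp3 was first of these 145 by reads of the host. In the 39 pairs whose nested transcript ends in a host exon, the host row was the higher of the pair in 22 (56.4%). For these pairs the median of the mean normalized counts was 26.8 for the host and 10.4 for the nested row. The host row held a median of 79.8% of the reads of the pair. In the 106 pairs whose nested transcript ends elsewhere, the host row was the higher in 63 (59.4%). There the medians were 10.9 for the host and 5.04 for the nested row, with a median host share of 78.4%. Syn1 and Timp1, and Syn2 and Timp4, belong to the second kind.

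**Figure D5:**
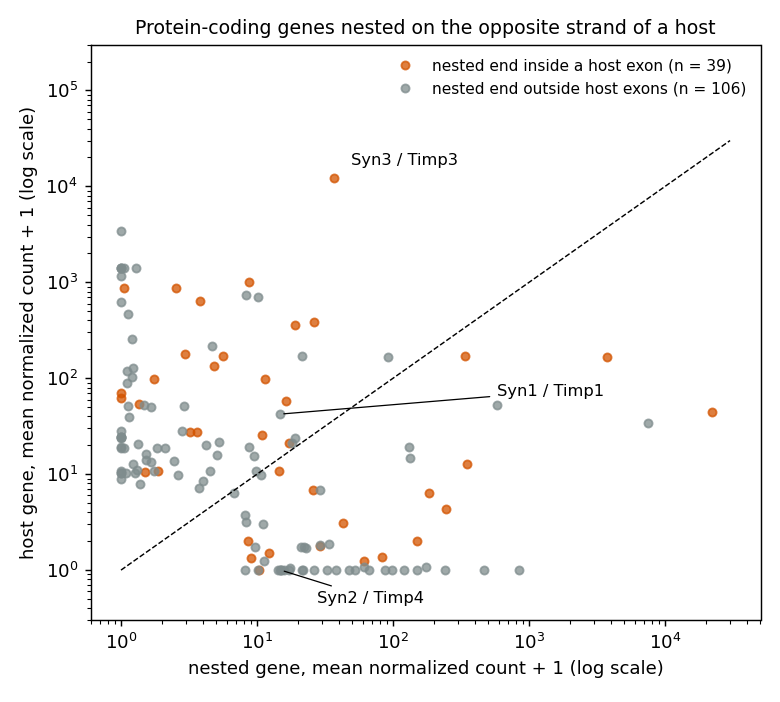
Mean normalized count + 1 of host and nested gene for 145 opposite-strand nested pairs, both axes on a log scale, with the dashed line at equal values. Syn3 with Timp3 has the highest host value, 12281, in the plot, while Syn1 with Timp1 and Syn2 with Timp4 lie among the other pairs.

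Rows whose pattern over the 9 libraries was most like that of a member were listed as a description, by Pearson's r of log2(normalized count + 1) over the same 9 libraries, which share size factors and the composition of each library. For Syn3 these were Nop58 (r = 0.87), Akap12 (0.86) and Rtraf (0.86). For Timp3 they were Rpl10a (r = 0.95), Rhpn2 (0.94) and Canx (0.94), for Timp2 Topors (0.90), Ctns (0.90) and 6030442K20Rik (0.89), for Syn1 Carmil2 (0.92), Gm26533 (0.89) and Sgf29 (0.88), and for Timp4 Impact (0.91), Micall1 (0.89) and Gm44168 (0.86). No member was among the 3 rows most like another. Syn3 and Timp3 had r = 0.11 with each other over the 9 libraries, and Syn3 and Syn1 had r = -0.63.

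The libraries held 432322 to 1285816 recovered reads in DOX and 497637 to 734114 in PBS. Of 12 fibroblast markers 9 were tested, with Col1a1, a main chain of type I collagen, at 1169 to 1785 in DOX and 1027 to 2333 in PBS. The row of Pdgfra, the gene of the sorting marker, was low, at 0.928 to 8.22 in DOX and 0.810 to 11.99 in PBS. Outside PBS replicate 4, granulocyte markers summed to 65.8 to 91.1 in DOX and 23.0 to 37.9 in PBS. Most of this sum was Ly6g alone, at 49.7 to 84.4 in DOX and 12.99 to 30.6 in PBS, and the other 11 markers summed to 0 to 26.6 in DOX and 3.17 to 9.99 in PBS. Epithelial markers summed to 44.5 to 178 in DOX and 15.8 to 36.6 in PBS, again outside PBS replicate 4, and the part of these lists in the member values was not tested.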

How the data were processed

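Fibroblast libraries of 5 DOX and 4 PBS mice were analysed. The authors aligned MARS-seq reads to mm10 (STAR) and obtained counts per gene by HTSeq-count with a RefSeq annotation. For the strand setting, tool versions and any collapsing of molecular tags, the state is not given in the sources used here, so counting intervals cover reads only. The deposited value per gene is a normalized signal, a read count divided by a size factor. All values were whole multiples of 1 step per library at a tolerance of 1e-06, and the size factors matched DESeq2's to within 1.28e-08 percent, so the read counts behind the deposited signal could be recovered. The values of repeated symbols, which made up 119 surplus lines per library, were summed by symbol. Of 17428 symbols above 0, 98.3% were found in GENCODE M21, used for positions, and 86.6% in a RefSeq gene list. The exons behind the deposited counts are not given, so they may differ from the exons described here.

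limma 3.58.1 (R 4.3.3) was fitted to log2(value + 1) of the 2604 genes with a value of 10 or above in 4 or more libraries, and p-values were adjusted by Benjamini-Hochberg (0.05). Shares and sums of a locus were compared by exact two-sided permutation over all splits into 5 and 4. Alternatives were edgeR 4.0.16, DESeq2 1.42.0, limma-voom, other scalings, filters and pseudocounts, each library left out, and the replicate number as a block. Python 3.11.15, NumPy 2.4.6, pandas 2.3.3 and SciPy 1.17.1 were used. The limma step was tested on simulated data. Genes named were the 7 members, from each list up to 6 tested genes by mean and up to 4 by lowest p, and for each tested member the 3 rows of highest r; other genes named were chosen after their values were seen. The members and lists were chosen with earlier results of these data known. Each p-value sets the difference between DOX and PBS against the spread between these libraries.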

Additional observations from a re-analysis of the deposited data

Results flagged for a closer look

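Dixon's test of the highest and lowest library was applied within each group to 6 members (Syn2, at 0 throughout, was left out), the 3 locus sums and the shares of the Syn3 and Syn1 loci, 22 tests in all, of which 3 passed the 95% critical value. For normally distributed values chance passes about 1 in 20 such tests, and these tests share reads. Syn1 in DOX replicate 2 stood at 92.9, with the next DOX library at 44.1. Timp1 in DOX replicate 1 stood at 80.7, with the next DOX library at 7.74. The Syn1 share of locus reads in DOX replicate 1 was 26.3%, with the next DOX library at 89.4%, and this share is made of the same Timp1 reads. Among the 2604 tested genes, DOX replicate 1 was such a highest library in 0.960% and DOX replicate 2 in 1.69%. Over all libraries these rates were 0.845% to 3.96% for the highest and 0.0384% to 0.422% for the lowest. A gene can be flagged through any library of a group, so single-library rates understate how often a flag occurs. Reasons for these values were not tested.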

How the results depend on the processing

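Over 21 alternatives Syn3 kept a negative log2 fold change (-0.45 to -0.19, adjusted p 0.553 to 0.986) and Timp3 (0.22 to 0.73) and Syn1 (0.29 to 0.82) positive ones, none past the threshold. With no filter on low values 3 genes were called, none of them a member; all other alternatives called 0. Scaling to the library total moved the median of all genes from -0.01 to -0.14. Timp2 changed sign with edgeR TMM (-0.00089), limma-voom (-0.025), scaling to the library total (-0.085), without DOX replicate 2 (-0.11), PBS replicate 1 (-0.17) or PBS replicate 4 (-0.067; -0.17 to 0.30 over libraries left out), and without PBS replicate 4 and DOX replicate 2 together (-0.23, chosen after seeing the data). Timp4 changed sign with limma-voom (-1.38), without DOX replicate 1 (-0.13) or PBS replicate 3 (-0.18), and the Syn2 and Timp4 sum, for which limma-voom was not run, changed sign without either of these libraries (-0.18 to 1.33 over libraries left out).

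With 1 library left out, the share difference ranged over -0.22 to -0.16 percentage points at Syn3 (adjusted p 0.0571 to 0.0714, exact permutation test) and -7.89 to 10.1 at Syn1. With a DOX library left out, the 70 splits allow no p below 0.0286 in this test. This lowest p was reached each time at Syn3 and gave the adjusted 0.0571. The locus sum difference ranged over -0.45 to -0.19 for Syn3 with Timp3 and 0.47 to 0.96 for Syn1 with Timp1. Correlations between same-numbered libraries were 0.021 to 0.066, below the 0.1 set for pairing, although 3 of 4 DOX libraries correlated best with the PBS library of their own number. With the replicate number as a block 0 genes were called and the differences were -0.16 percentage points for the Syn3 share and -0.29 for the Syn3 and Timp3 sum. Depth limits Timp1 and Timp4, with 130 and 114 reads in all.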
